A study of Mus musculus with 44 samples.

Results

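The response to 4-hydroxytamoxifen (4-OHT) was measured in clone 1 of mouse embryonic stem (ES) cells that carry HexERTVP2 at the Rosa26 locus in its recombined state. The members were defined by their labels, with earlier results of these data known: 4 arrays with 4-OHT and 4 without it, 8 of the 44 arrays of the series. The label of every array gives CGR8, a mouse ES cell line, in the form of its cgr8.8 clone, and the wild-type cells are named CGR8.8. HexERTVP2 is a form of the homeodomain protein Hex joined to a tamoxifen-binding domain of the oestrogen receptor, so that 4-OHT is meant to switch on the fusion protein, and VP2 is the name given to an activation domain derived from VP16. The controls used here were unrecombined clone 1 (3 arrays with 4-OHT, 5 without), in which the construct sits at Rosa26 before recombination, and recombined clone 2 (3 with, 3 without), a separate clone of the same construct. The untreated groups carry the construct too. Unrecombined clone 2 (3 and 3 arrays) entered the fit as well. Each clone is 1 cell clone, and dose and duration of 4-OHT are not given in the sources used here. Nothing in the labels tells if a group's arrays stem from separate cultures, so every p-value measures the spread between these arrays, which may be technical.

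Hex, encoded by Hhex, is a transcriptional repressor of the anterior endoderm and of blood and endothelial precursors, and it recruits co-repressors of the Groucho/TLE family. It belongs to the homeodomain proteins that bind DNA at sites with an ATTAA core. Joined to an activation domain, a repressor's targets are expected to be turned on rather than off. In early embryos Hex acts in tissue patterned by Nodal, a ligand of the TGF-β superfamily, and by Wnt signals. Mouse ES cells kept undifferentiated express naive pluripotency factors such as Nanog, Klf2 and Nr5a2, and they also express Nodal and its co-receptor Tdgf1. The study asked which genes Hex regulates in such cells.

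The arrays were Affymetrix MG-U74Av2, on which several probes are combined into 1 value per probe set. Intensities are relative, and values below are log2 intensities. The 8 arrays had median log2 values between 6.74 and 6.79. ES cell markers were high on them: Pou5f1, the core pluripotency factor, averaged 11.08 ± 0.54 without and 11.41 ± 0.54 with 4-OHT, and Nanog 11.31 ± 0.13 and 11.08 ± 0.10 (SD, n = 4 each). The Hhex probe set, which need not detect the inserted gene, read 6.13, 6.29, 6.42 and 6.30 without 4-OHT and 6.13, 6.31, 6.16 and 6.13 with it. The groups overlapped (log2 difference −0.10, SE 0.07, adjusted p = 0.771), and the values lay below the array median. The transcript of the targeted locus, Gt(ROSA)26Sor, also overlapped, at 4.51 ± 0.21 without and 4.34 ± 0.13 with 4-OHT (SD, n = 4 each). Neither probe set is a measure of the construct. The β-actin 3′/5′ log2 ratio is higher where RNA is more degraded or labelled less completely. It averaged lower with 4-OHT, so by this ratio the treated arrays were the less degraded or more completely labelled ones on average, with overlapping groups. This ratio was 1.59, 0.73, 2.34 and 1.67 on arrays 1 to 4 without 4-OHT and 1.34, 0.57, 1.21 and 0.71 on arrays 1 to 4 with it. It was lower with 4-OHT in all 4 same-numbered pairs. The mean difference was −0.62 (two-sided exact permutation test without pairing, p = 0.143, where the smallest possible is 0.0286). The same ratio of Gapdh differed by −0.63 (exact permutation test, p = 0.114).

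With 4-OHT, 7 genes fell in recombined clone 1 and none with a symbol rose. Klf2 and Nr5a2, both transcription factors of naive pluripotency, fell, as did Egr1, an immediate-early transcription factor, and Inhbb, the subunit of the ligand activin B. Cpt1a, the enzyme that admits fatty acids to mitochondria, Prss23, a serine protease, and Ccn4, a matricellular protein of the Wnt response, fell too. The probe set 100914_at, for which the annotation used here gives no symbol, rose. The changes were small, from 1.27-fold lower in Nr5a2 to 1.41-fold lower in Egr1, and the 4 arrays with 4-OHT did not overlap the 4 without it in any of the 8. These 8 calls were 0.0644% of the 12422 probe sets tested, the 7 falls being 0.0564% and the rise 0.00805% (limma, Benjamini-Hochberg adjusted p under 0.05, in 1 model of 28 HexERTVP2 arrays). Across all probe sets, 717 (5.77%) had an unadjusted p under 0.05, and in 232 (1.87%) the 4 and 4 arrays did not overlap, 69 (0.555%) higher and 163 (1.31%) lower with 4-OHT. Full separation of 4 from 4 arrays has a two-sided exact permutation p of 0.0286, and the share of 1.87% is not above this. Separation alone therefore does not mark a probe set as changed.

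**Figure D1:**
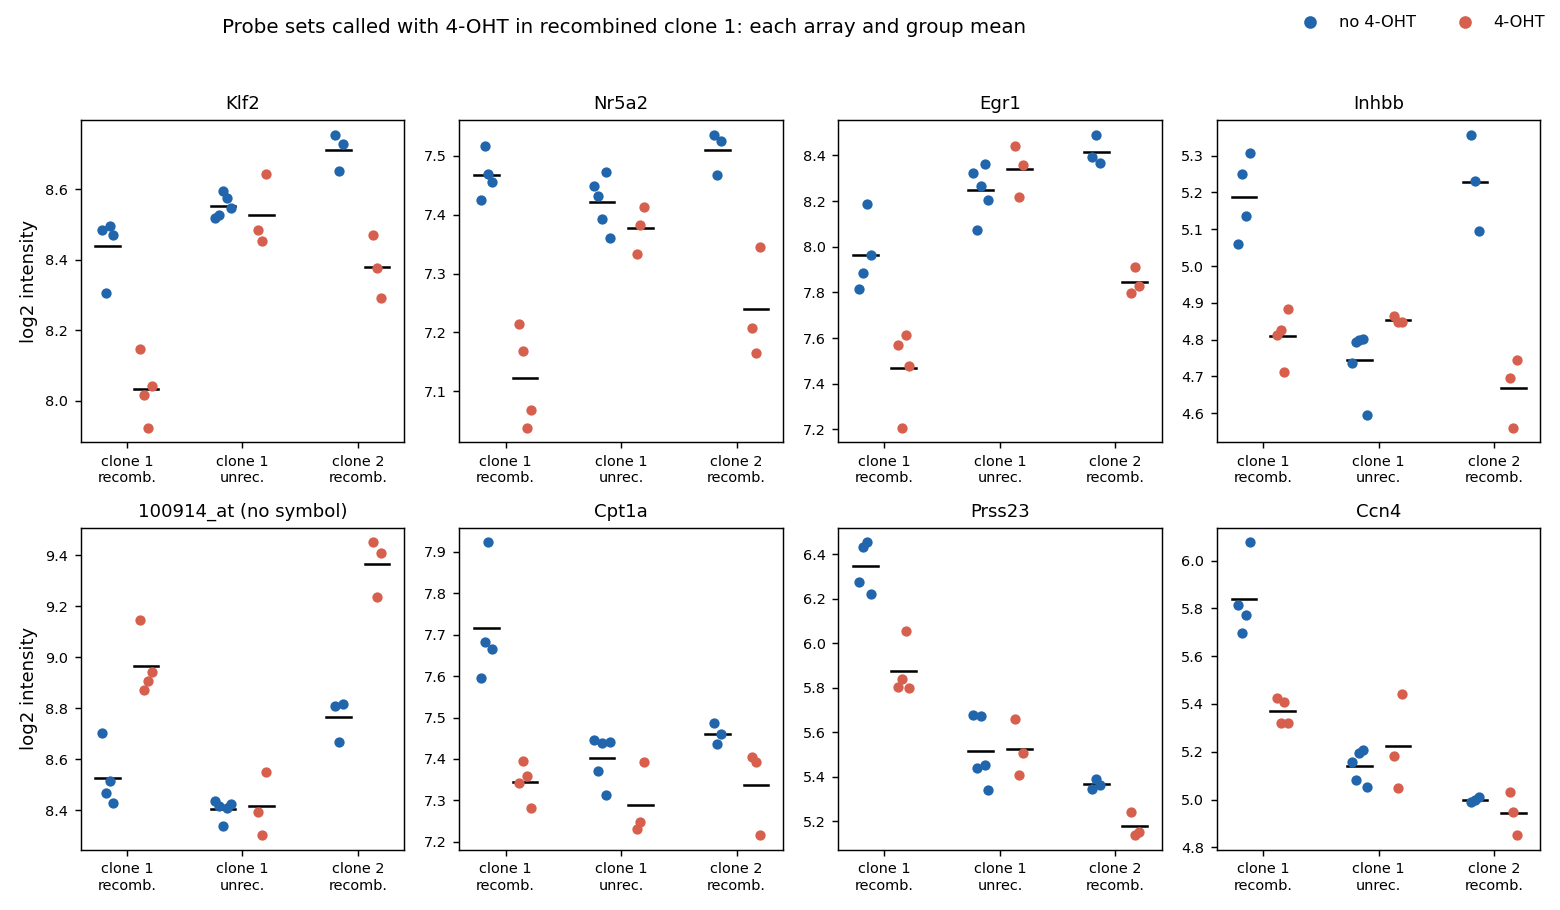
The 8 called probe sets on each array, as log2 intensity (vertical axes differ between panels and do not start at 0); dots are arrays, bars are group means, blue is without and red with 4-OHT. In recombined clone 1 the red and blue arrays do not overlap in any panel, and all panels but that of Ccn4 also separate by 4-OHT in recombined clone 2. The share of all probe sets that separate in clone 2 is not given. With 3 against 3 arrays there, the smallest possible p of an exact permutation test is 0.1.

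The calls depended on the fit. Over 25 other fits (24 for Inhbb, Prss23 and Ccn4, which a filter on dim probe sets removed), each of the 8 kept its direction. Many of these fits could not have turned it. The 4 and 4 arrays do not overlap, so leaving out 1 array keeps the sign, and other arrays fitted alongside leave the group means unchanged. Each of the 8 kept its call in 6 (Prss23) to 12 (Klf2, Nr5a2 and Egr1) of the fits. Leaving out single arrays gave 0 to 7 calls: 0 without array 3 or 4 of the untreated group or array 2, 3 or 4 of the treated group, 1 (Klf2) without untreated array 2, and 3 (Klf2, Nr5a2 and Egr1) without treated array 1. A fit of only the 8 arrays called 0 (585 probe sets, 4.71%, at an unadjusted p under 0.05), and a fit of all 40 labelled arrays called 1 (Ccn4). Those include 1 unrecombined Hex array that stands apart from the rest, and without it the count was 8, of which 7 were shared.

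Same-numbered arrays with and without 4-OHT deviated together in this clone, so the number was also fitted as a replicate block. With the 8 arrays alone, the paired fit called 422 probe sets (3.4%), 324 (2.61%) higher and 98 (0.789%) lower, all 8 of the calls above among them. With the block set within the 28-array model the count was 10 (0.0805%, 8 shared; Tle3 and Vps54 added), and with blocks in every clone and state it was 0. With that ratio as a covariate the 8-array paired fit called 8 probe sets, of which 0 were shared with the 8 calls above (3 residual degrees of freedom without and 2 with the covariate), and the unpaired 28-array fit called 7, of which 4 were shared (Klf2, Nr5a2, Inhbb and 100914_at). The part of RNA quality in the 422 was not tested beyond this. Values from the paired fit below are those of the 8 arrays alone.

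**Figure D2:**
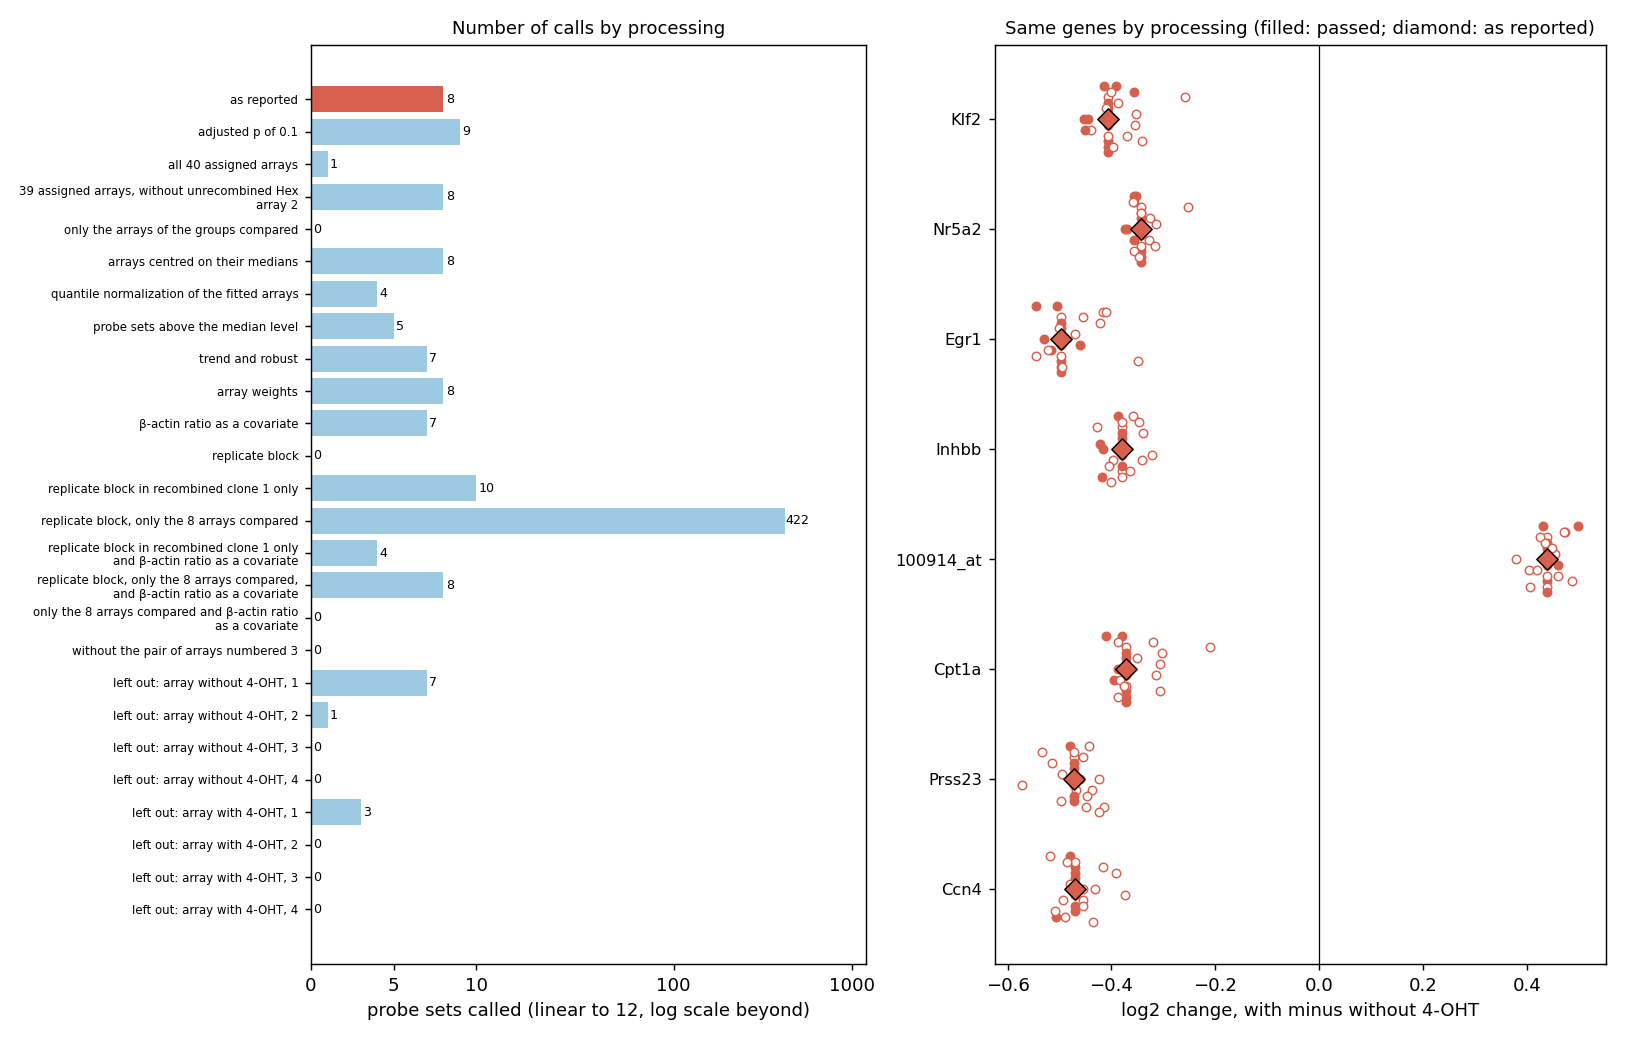
Left, the number of probe sets called with 4-OHT in recombined clone 1 under each processing (horizontal axis linear to 12 and logarithmic beyond); right, the log2 change of each of the 8 called probe sets in the same fits, filled where it passed and with the reported fit as a diamond. The counts run from 0 to 422. The changes keep their sign, such as −0.45 to −0.26 for Klf2, which many of these fits could not have turned.

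Promoters of 4 of the genes that fell are shown to let the reader see the sequence before the start site, because Hex is known to bind DNA. Each is the 250 bases before the RefSeq start in GRCm38.p6, 5′ to 3′ on the gene's strand, with ATTAA on either strand (ATTAA or TTAAT) in capitals. Klf2 lies at chr8:72318812-72319061 on the plus strand. Nr5a2, shown for the first of its 2 starts, lies at chr1:136960449-136960698 on the minus strand. Inhbb lies at chr1:119422249-119422498 on the minus strand and Cpt1a at chr19:3323051-3323300 on the plus strand.
Klf2: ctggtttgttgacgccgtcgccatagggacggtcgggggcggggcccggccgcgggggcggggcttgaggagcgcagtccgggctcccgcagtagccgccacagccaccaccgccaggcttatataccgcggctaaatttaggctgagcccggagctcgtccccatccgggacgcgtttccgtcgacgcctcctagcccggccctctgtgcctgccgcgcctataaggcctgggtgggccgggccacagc
Nr5a2: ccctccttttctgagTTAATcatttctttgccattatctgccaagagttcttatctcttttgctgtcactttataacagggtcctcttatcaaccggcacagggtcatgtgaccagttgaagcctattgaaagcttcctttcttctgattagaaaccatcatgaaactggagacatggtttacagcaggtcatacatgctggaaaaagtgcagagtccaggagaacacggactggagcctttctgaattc
Inhbb: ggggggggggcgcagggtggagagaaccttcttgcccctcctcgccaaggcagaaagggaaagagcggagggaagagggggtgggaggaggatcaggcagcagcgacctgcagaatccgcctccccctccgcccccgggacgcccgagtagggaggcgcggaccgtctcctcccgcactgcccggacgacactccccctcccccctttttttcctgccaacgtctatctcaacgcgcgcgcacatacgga
Cpt1a: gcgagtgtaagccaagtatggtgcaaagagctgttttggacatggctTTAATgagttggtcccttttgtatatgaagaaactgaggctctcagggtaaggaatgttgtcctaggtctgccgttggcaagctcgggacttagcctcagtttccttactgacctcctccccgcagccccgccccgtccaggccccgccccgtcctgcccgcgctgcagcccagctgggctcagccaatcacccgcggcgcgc
The motif occurred 1 time in the Nr5a2 window and 1 time in that of Cpt1a, and 0 times in those of Klf2 and Inhbb. Of all 32851 windows of this length in the table, 24.9% held it. Of the 7 genes that fell, 5 had a window in the table, and 2 of these 5 held the motif in any window. Prss23 had 7 windows, 0 with the motif, and Nr5a2 had 2, 1 with it. The count by gene is therefore not comparable with the share of windows. A match is a description of these letters and not of binding.

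Among 18 measured genes of the naive pluripotency list, 2 fell (Klf2 and Nr5a2) and 0 rose, with a list median of −0.03 against −0.01 over all 8251 genes; over all genes 7 fell and 0 rose. Klf2, a Krüppel-like factor that holds ES cells in the naive state, read 8.49, 8.31, 8.50 and 8.47 on arrays 1 to 4 without 4-OHT and 8.15, 8.02, 7.92 and 8.04 with it. Its highest treated array lay below its lowest untreated one, and the log2 change was −0.41 (SE 0.06, 1.33-fold lower, adjusted p = 0.0131). Nr5a2, a nuclear receptor that binds regulatory sequences of Pou5f1, read 7.43, 7.52, 7.47 and 7.45 without 4-OHT and 7.21, 7.17, 7.04 and 7.07 with it. These groups also lay apart (−0.34, SE 0.06, adjusted p = 0.0131), and a dimmer second probe set of Nr5a2 differed by −0.24 (SE 0.10, adjusted p = 0.763). Both passed with the β-actin covariate in the 28-array fit (−0.36 in each).

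Other members of that list differed without passing. Nr0b1, an orphan nuclear receptor of ES cells, read 9.50, 9.83, 10.26 and 10.14 without 4-OHT and 10.22, 10.71, 10.66 and 10.38 with it, overlapping at 1 array (0.56, SE 0.14, adjusted p = 0.362). Tdgf1, the Nodal co-receptor, read 8.64, 8.74, 8.52 and 8.43 without 4-OHT and 8.02, 8.11, 8.36 and 7.97 with it. The groups did not overlap, and its difference of −0.47 (SE 0.12) did not pass (adjusted p = 0.368). In the paired fit 6 of the 18 (33.3%, beside 3.65% of all genes) passed: Nr0b1 and Utf1 (0.61) higher, and Klf2, Nr5a2, Tdgf1 and Fbxo15 (−0.35) lower. With the β-actin ratio in that fit 2 of these 6 passed, Nr0b1 (0.90, adjusted p = 0.0118) and Tdgf1 (−0.73, adjusted p = 0.0321). Of 11 core ES cell genes none passed, with Mycn (0.25) and Trim28 (0.36) nearest, and of 12 genes of the LIF pathway, which sustains the naive state, none passed (Socs2 −0.42, Lifr −0.46).

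In the Nodal and activin list 1 of 21 measured genes fell (Inhbb), 0 rose and the median was 0.04. Inhbb read 5.06, 5.25, 5.14 and 5.31 without 4-OHT and 4.81, 4.83, 4.71 and 4.88 with it. All treated arrays lay below all untreated ones, and the log2 change was −0.38 (SE 0.07, adjusted p = 0.0357), at levels under the array median that are not shown to exceed background. Nodal itself read 7.49, 7.95, 7.52 and 7.78 without 4-OHT and 7.98, 8.52, 8.26 and 8.11 with it. The treated arrays were all higher, if narrowly, and the difference of 0.54 (SE 0.14, 1.45-fold, adjusted p = 0.385) did not pass. The study itself singled out Nodal and Tle4 on these arrays, so their direction here is no independent evidence.

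The paired fit called 4 of these 21 genes (19%, beside 3.65% of all genes). Nodal was higher (adjusted p = 0.0275), as was Lefty1, a secreted Nodal antagonist that Nodal induces, which read 8.79, 9.51, 8.45 and 8.76 without 4-OHT and 9.10, 9.998, 9.09 and 9.45 with it. The Lefty1 groups overlapped, because array 2 was highest in each, and every pair was higher with 4-OHT (0.53, adjusted p = 0.763 unpaired and 0.0275 paired). Inhbb and Tdgf1 were the lower calls. With the β-actin ratio beside the block Nodal was at 0.51 (adjusted p = 0.248) and Lefty1 at 0.35 (adjusted p = 0.449). In the BMP list, whose signal acts in ES cells through the Id genes, none of 18 passed unpaired (Bmp4 −0.18, Id2 −0.52), while the paired fit called Id2 lower and Id3 (0.30) higher (11.1%, beside 3.65% of all genes). With the β-actin ratio in that fit neither passed (Id2 −0.30, adjusted p = 0.599; Id3 0.18, adjusted p = 0.766).

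Egr1 was the 1 of 25 immediate-early and ERK response genes that fell, with 0 rises and a list median of 0.00. It read 7.81, 7.89, 8.19 and 7.96 without 4-OHT and 7.57, 7.21, 7.61 and 7.48 with it. The groups did not overlap (−0.50, SE 0.09, 1.41-fold, adjusted p = 0.0350), and a dimmer second Egr1 probe set, with overlapping arrays, differed by −0.26 (SE 0.16, adjusted p = 0.763). With the β-actin covariate Egr1 was at −0.42 and no longer passed (adjusted p = 0.0808). Dusp1, a MAP kinase phosphatase (−0.28, adjusted p = 0.763), and Fos (−0.41) did not pass; Fos joined Egr1 in the paired fit (adjusted p = 0.0473), 8% of the list beside 3.65% of all genes. With the β-actin ratio in that fit neither passed (Fos −0.16, adjusted p = 0.837; Egr1 −0.46, adjusted p = 0.322).

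None of the 7 Groucho/TLE list members passed, and their median was 0.19. Tle4, a Groucho-related co-repressor, read 8.15, 9.09, 8.50 and 8.71 without 4-OHT and 8.69, 9.70, 9.65 and 9.50 with it. Treated array 1 lay below untreated arrays 2 and 4, and the difference of 0.77 (SE 0.24, 1.71-fold) did not pass (adjusted p = 0.763). Each pair was higher with 4-OHT, by 0.54, 0.60, 1.15 and 0.79. Tle3 read 8.79, 9.04, 9.18 and 9.12 without 4-OHT and 9.34, 9.53, 9.41 and 9.37 with it, without overlap, and came close to the threshold (0.38, SE 0.08, adjusted p = 0.0572). Tle5, a truncated family member that antagonises the others, differed by 0.19 (adjusted p = 0.763). In the paired fit Tle4 (adjusted p = 0.0275) and Tle3 (adjusted p = 0.0362) passed, 28.6% of the list beside 3.65% of all genes. With the β-actin ratio in that paired fit Tle4 was at 0.46 (adjusted p = 0.269) and Tle3 at 0.58 (adjusted p = 0.113), and neither passed. With the ratio in the unpaired 28-array fit Tle4 was at 0.47 and Tle3 at 0.34, neither passed, and the list median was −0.04.

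Since 4-OHT binds oestrogen receptors, genes known to respond to oestrogen were followed as well. Of 18 measured, 1 fell (Prss23) and 0 rose, the median was −0.03, and in 5 the arrays did not overlap, all lower (1.31% of all probe sets). Prss23, an oestrogen-responsive protease gene in other cells, read 6.28, 6.43, 6.45 and 6.22 without 4-OHT and 5.80, 5.84, 6.06 and 5.80 with it. The groups lay apart below the array median (−0.47, SE 0.09, adjusted p = 0.0357), and with the β-actin covariate the call was lost (−0.42, adjusted p = 0.139). Cyp1b1, an enzyme that hydroxylates oestradiol, was at 6.72 without and 6.24 with 4-OHT (−0.48, adjusted p = 0.420), and Cited2, a transcriptional co-regulator, at 9.19 and 8.83 (−0.36, adjusted p = 0.368). The paired fit called 4 of the 18 lower (22.2%, beside 3.65% of all genes: Prss23, Cyp1b1, Cited2 and Myb) and 0 higher, and with the β-actin ratio 0. Oestrogen receptor targets are known mainly from other tissues, so the list is a loose guide in ES cells.

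The remaining calls belonged to none of the lists. Cpt1a read 7.59, 7.68, 7.92 and 7.66 without 4-OHT and 7.34, 7.40, 7.36 and 7.28 with it. The groups did not overlap, and the log2 change was −0.37 (SE 0.07, adjusted p = 0.0357; 0.142 with the β-actin covariate). Ccn4 read 5.81, 5.70, 5.77 and 6.08 without 4-OHT and 5.43, 5.32, 5.41 and 5.32 with it. These values lay below the array median and apart (−0.47, SE 0.09, adjusted p = 0.0357; 0.139 with the covariate). The probe set 100914_at read 8.70, 8.47, 8.51 and 8.43 without 4-OHT and 9.15, 8.87, 8.91 and 8.94 with it. It was the only rise (0.44, SE 0.08, adjusted p = 0.0357), and with the covariate it was at 0.47 and passed. The covariate fit also called Id1, a target of BMP signals (−0.76), Txnip, an inhibitor of thioredoxin (−0.57), and Zic2 (0.58), which the unadjusted fit had at −0.27, −0.31 and 0.48.

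Beyond the calls, the naming rule filled each direction up to 12 genes with those of lowest p among genes whose arrays did not overlap, and these are given as values. Zic2, a zinc-finger factor of the neural plate, read 5.99, 5.92, 6.32 and 6.03 without 4-OHT and 6.61, 6.64, 6.60 and 6.34 with it. The groups were narrowly apart, the difference of 0.48 (SE 0.12, adjusted p = 0.340) did not pass, and a brighter second Zic2 probe set differed by −0.01 with a sign that turned between settings. Dll1, a Notch ligand, was higher by 0.26, Gpx2, a glutathione peroxidase, by 0.30, and Plac8 by 0.40. Abhd5, a co-activator of fat breakdown (0.33), Polr2f, a subunit shared by RNA polymerases (0.32), Dmwd (0.28), Snx21, a sorting nexin (0.24), Esyt1, which tethers the endoplasmic reticulum to the plasma membrane (0.20), and Braf, a kinase of the ERK cascade (0.20), completed the higher set. Second probe sets differed in the opposite direction for Esyt1 (−0.22) and, at a brighter level, for Braf (−0.04). On the lower side Calcoco2, an autophagy receptor, read 7.44, 7.40, 7.79 and 7.62 without 4-OHT and 6.87, 7.08, 7.14 and 7.01 with it. The groups did not overlap, and its difference of −0.54 (SE 0.12) did not pass (adjusted p = 0.227). Vps54, of a complex that tethers vesicles at the Golgi (−0.49, adjusted p = 0.111), and Gbp2b, an interferon-induced GTPase (−0.45, adjusted p = 0.340), did not pass either.

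**Figure D3:**
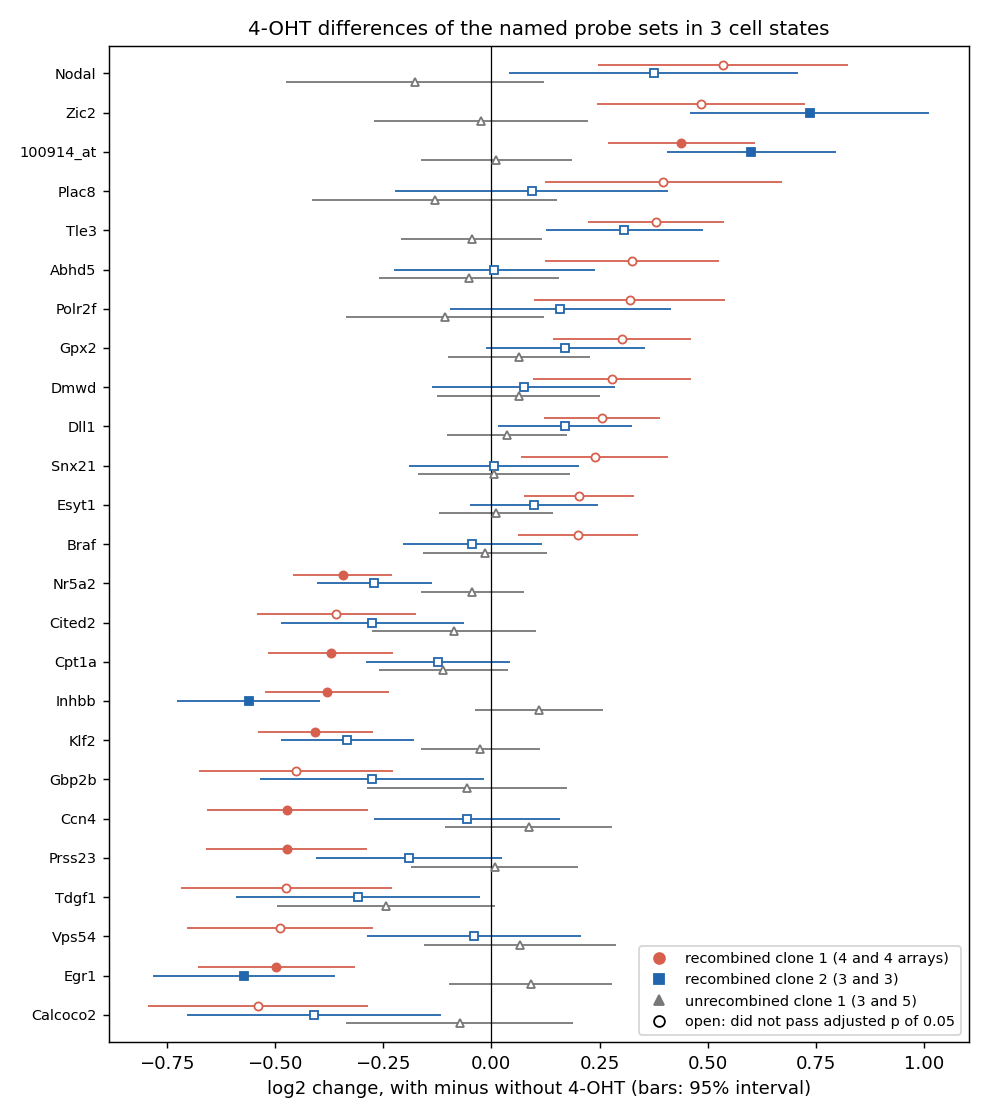
Log2 change with minus without 4-OHT (horizontal axis, bars 95% intervals of the limma fit) of 25 named probe sets in recombined clone 1 (red), recombined clone 2 (blue) and unrecombined clone 1 (grey); filled symbols passed the adjusted p of 0.05. The red and blue points share their side of 0 in every row but Braf, and no grey point is filled.

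In the other 19 lists none passed, and their medians ran from −0.05 (27 interferon-induced genes) to 0.19 (Groucho/TLE). Among interferon-induced genes the nearest were the GTPases Gbp2b and Gbp2 (−0.28, adjusted p = 0.453) and Irgm1 (−0.35). The arrays of 3 of the 27, Gbp2b, Gbp2 and Gbp3 (−0.36), did not overlap, all lower, beside 1.31% of all probe sets. The paired fit called 4 of the 27 (14.8%, beside 3.65% of all genes), 1 higher and 3 lower, and 0 with the β-actin ratio. Of 37 Wnt genes none passed (Dvl2 0.44, Csnk1a1 −0.30, Dvl1 0.12), nor did any of 16 anterior endoderm and head organizer genes, the tissue in which Hex is best known (Lefty1, Fzd8 0.14, Eomes 0.12). Of 33 primitive and visceral endoderm genes none passed (Lama1, a laminin chain, 0.36), and of 29 primitive streak and mesoderm genes none (Dll1, Bmp4, Msx2 −0.18). Markers of other cells that an ES culture can hold did not pass either: 0 of 27 neuroectoderm (Nes 0.28), 0 of 15 trophoblast (Tfap2c −0.35), 0 of 22 fibroblast (Acta2 −0.27) and 0 of 25 blood and endothelium genes (Eng 0.21). Cholesterol synthesis (18 genes, median 0.10; Mvd 0.42), glycolysis and hypoxia (22, 0.04; Pfkl 0.68), the cell cycle (38, −0.01; Ccnd2 −0.22), stress (23, 0.01; Gadd45g 0.43), ribosomal proteins (30, 0.05; Rplp0 0.36) and homeobox genes (48, 0.00; Gbx2 −0.28) had 0 calls. In the paired fit Cdc20 and Mcm7 of the cell cycle list and Apoe and Lama1 of primitive and visceral endoderm were called higher, as were Dvl2, Mvd, Pfkl, Gadd45g and Lefty1 in their lists. That fit called Lifr, Tfap2c and the ribosomal protein gene Rpl32 lower. The called share of these lists ran from 2.7% (Wnt) to 8.33% (LIF), with 5.26% for the cell cycle and 6.06% for primitive and visceral endoderm, beside 3.65% of all genes. With the β-actin ratio in that fit none of these 12 genes passed.

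**Figure D4:**
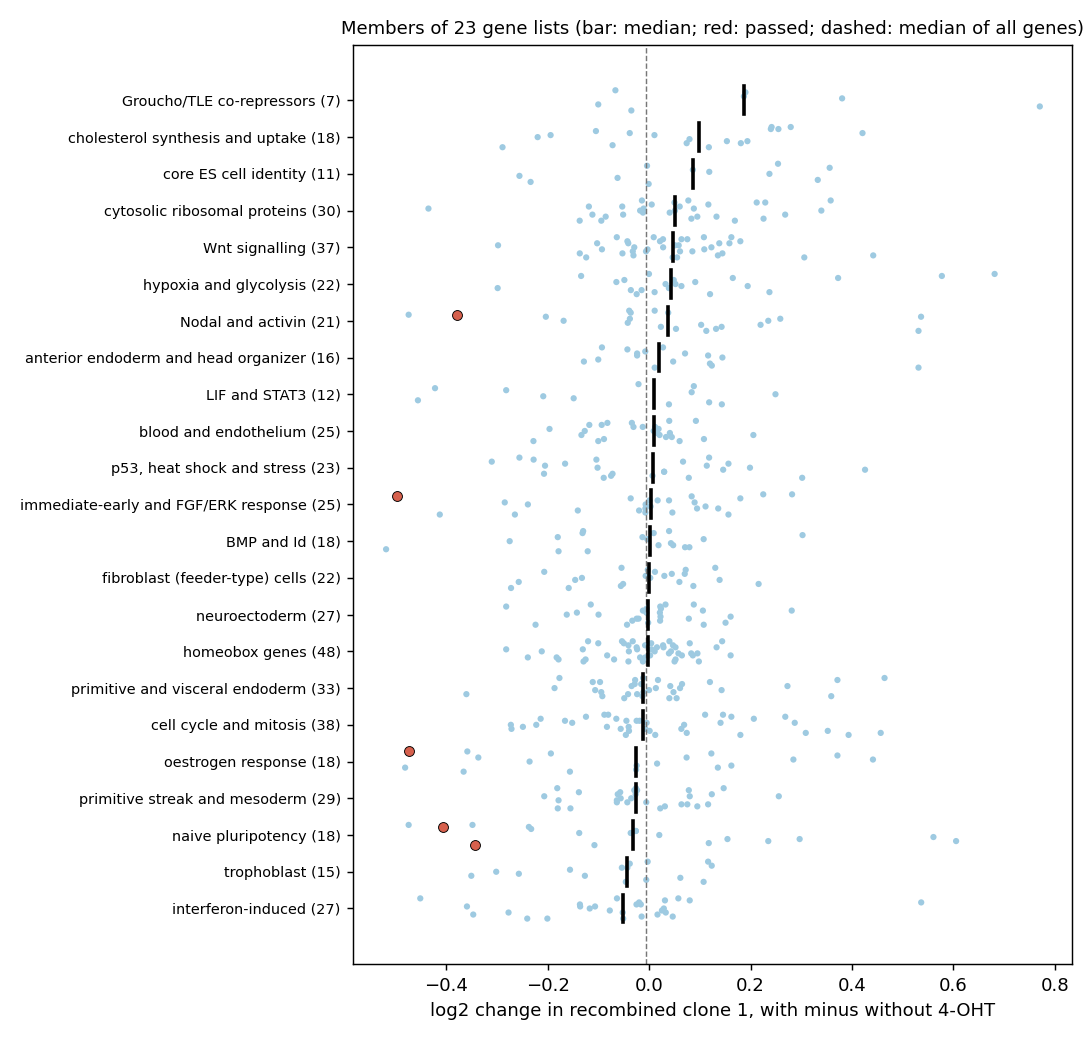
Log2 change with minus without 4-OHT in recombined clone 1 (horizontal axis) of each measured member of 23 gene lists, with the number measured in parentheses, list medians as bars and the median of all genes as a dashed line. Red points passed: Klf2 and Nr5a2 in naive pluripotency, Inhbb in Nodal and activin, Egr1 in immediate-early genes and Prss23 in oestrogen response.

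Unrecombined clone 1 served as the control for 4-OHT itself. There limma called 0 probe sets (0%; 191, or 1.54%, at an unadjusted p under 0.05). Of the 24 genes named by rank in recombined clone 1, 12 had the same sign in unrecombined cells, and their differences there lay between −0.24 and 0.11. Klf2 averaged 8.55 ± 0.03 without (n = 5) and 8.53 ± 0.10 with 4-OHT (n = 3), Egr1 8.25 ± 0.11 and 8.34 ± 0.11, and Inhbb 4.75 ± 0.09 and 4.85 ± 0.01 (SD). Klf2 arrays overlapped there, and the 3 treated arrays of Inhbb lay above the 5 untreated ones (0.11, not passing). The β-actin log2 ratio was 0.14 higher with 4-OHT in these unrecombined cells. The 4-OHT response of unrecombined clone 2 was not tested. There the mean of every probe set called in recombined clone 1 moved the opposite way. Prss23 averaged 4.98 ± 0.17 without and 5.57 ± 0.13 with 4-OHT in unrecombined clone 2. Inhbb averaged 4.82 ± 0.07 and 5.005 ± 0.05 there, and Klf2 8.503 ± 0.07 and 8.63 ± 0.08 (SD, n = 3 each). The arrays of these genes and of Nr5a2 did not overlap, and those of the other called probe sets did.

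An interaction term asked if recombination altered the response to 4-OHT, and limma called 0 probe sets (0%; 334, or 2.69%, at an unadjusted p under 0.05). The lowest adjusted p, 0.649, was shared by Inhbb (−0.49, SE 0.10) and Egr1 (−0.59, SE 0.13). Klf2 had an interaction of −0.38 (SE 0.09), Prss23 of −0.48 (SE 0.13), Ccn4 of −0.56 (SE 0.13), Nodal of 0.71 (SE 0.20) and Tle4 of 0.98 (SE 0.34), and each had an adjusted p of 0.878. The calls in recombined clone 1 were therefore not shown to differ from the response of unrecombined cells of clone 1. The interaction count was 0 in every alternative run.

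Recombined clone 2 provides 6 separate arrays for the same treatment. There 4 probe sets passed (0.0322%; 124, or 0.998%, at an unadjusted p under 0.05), and 3 of these were among the 8 of clone 1. Inhbb averaged 5.23 ± 0.13 without and 4.67 ± 0.10 with 4-OHT (SD, n = 3 each), a log2 change of −0.56 (SE 0.08, adjusted p = 0.00374). Egr1 averaged 8.42 ± 0.07 and 7.85 ± 0.06 (−0.57, SE 0.10, adjusted p = 0.0370), but its dimmer second probe set differed by only −0.003 (SE 0.18) in clone 2. The probe set 100914_at averaged 8.77 ± 0.08 and 9.37 ± 0.11 (0.60, SE 0.09, adjusted p = 0.00901). These 3 called probe sets separated the treated from the untreated arrays of both clones. With 3 against 3 arrays the smallest possible p of an exact permutation test is 0.1. The share of all probe sets that separate in clone 2 is not given here. The fourth call was Zic2, at 6.25 ± 0.01 without and 6.99 ± 0.37 with 4-OHT (0.74, SE 0.13, adjusted p = 0.0370), through the probe set that reached 0.48 in clone 1. The brighter second Zic2 probe set differed by only −0.04 (SE 0.10) in clone 2. The clone 2 count was 1 or 2 when any 1 of its arrays was left out, and 0 when its 6 arrays or all 40 arrays were fitted. It was 8 with the β-actin covariate and 871 with array weights (260 higher, 611 lower). The 8 with the covariate included Inhbb, Egr1, 100914_at, Zic2 and, narrowly, Klf2 (−0.36, limma adjusted p = 0.0499).

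Klf2 and Nr5a2 had the same sign in clone 2 without passing. Klf2 averaged 8.71 ± 0.05 without and 8.38 ± 0.09 with 4-OHT (−0.33, SE 0.07, adjusted p = 0.392), and Nr5a2 7.51 ± 0.04 and 7.24 ± 0.09 (−0.27, SE 0.06, adjusted p = 0.640; SD, n = 3 each). The arrays of these probe sets did not overlap in either gene, but the dimmer second Nr5a2 probe set differed by only −0.0095 in clone 2. Prss23 (−0.19), Cpt1a (−0.12) and Ccn4 (−0.06) were smaller there, and Ccn4 without 4-OHT was at 4.999 ± 0.01 in clone 2 against 5.84 ± 0.16 in clone 1 (SD, n = 3 and 4). Nodal was higher by 0.38 (SE 0.16), Tle4 by 0.40 (SE 0.27) and Tle3 by 0.31 (SE 0.09) in clone 2. All 8 calls of clone 1, and 23 of the 24 genes named by rank, had the same sign in clone 2, beside 45.3% of all probe sets. The β-actin log2 ratio was higher with 4-OHT in clone 2 by 0.32 and that of Gapdh differed by −0.08, beside −0.62 and −0.63 in clone 1. The difference between the clones was called at 0 probe sets (0%; 208, or 1.67%, at an unadjusted p under 0.05); for Ccn4 it was −0.42 (adjusted p = 0.956) and for Klf2 −0.07 (adjusted p = 0.956).

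Levels in the other lines of the series place these values, as a description without a test. Klf2 averaged 8.69 ± 0.04 in wild-type cells and 8.85 ± 0.12 in cells with recombined Hex (SD, n = 4 each), and recombined clone 1 with 4-OHT, at 8.03 ± 0.09, was below both. Egr1 averaged 8.70 ± 0.21 in wild type and 7.47 ± 0.18 in treated clone 1. Prss23 ran the other way: wild type was at 4.85 ± 0.15, and recombined clone 1 stood above it both without (6.35 ± 0.12) and with 4-OHT (5.87 ± 0.12). Ccn4 was likewise at 4.76 ± 0.04 in wild type and 5.37 ± 0.06 in treated clone 1 (SD, n = 4 each). Thus Klf2 and Egr1 moved away from the wild-type level with 4-OHT, and Prss23 and Ccn4 moved towards it. Untreated recombined clone 1 had the highest mean of all groups in both Prss23 and Ccn4. Outside recombined clone 1 the highest mean of Prss23 was 5.57 (unrecombined clone 2 with 4-OHT). That of Ccn4 was 5.225 (unrecombined clone 1 with 4-OHT). Inhbb averaged 5.07 ± 0.15 in wild type, between untreated clone 1 at 5.19 ± 0.11 and treated clone 1 at 4.81 ± 0.07.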

How the data were processed

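The deposited intensity values, 1 per probe set and array, are on the linear scale and came from RMA, per the submitters' processing notes, without a version or settings in the sources used here. RMA corrects background, normalises by quantiles and combines the probes of a set, which brings the arrays to like distributions and shrinks small intensities together. Which arrays were normalised together is not given in the sources used here. The values were converted to log2. Of 12488 probe sets, 66 controls were left out and 12422 tested without a filter. Gene symbols were taken from GEO's platform annotation (10833 probe sets had 1 symbol, 396 with several, 1193 with none), and 10817 matched RefSeq. Arrays carry no count of molecules, and their number per group limits precision.

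Sample titles defined the groups, and 4 arrays were left out because title words and code disagreed. The 28 HexERTVP2 arrays (8 groups, 20 residual degrees of freedom) were fitted in limma 3.58.1 (R 4.3.3; lmFit, eBayes, two-sided, Benjamini-Hochberg threshold 0.05), and plots were made in Python 3.11.15 with matplotlib 3.10.9. Errors of changes are SE. That set of arrays, the members, the 23 lists and the alternatives were chosen with earlier results of these data known, among them that 1 unrecombined Hex array stands apart. Named were Hhex, Tle4, Nodal, Inhbb, Zic2, Egr1, Prss23 and Gt(ROSA)26Sor; the 12 strongest genes per direction whose arrays did not overlap (passing ones by size, then lowest p); and up to 4 passing members per list, else up to 3. Other genes named because a paired or covariate fit called them (such as Nr0b1, Utf1, Lefty1, Fos, Id1 and Txnip) or as further examples were chosen after their values were seen. A list gene was represented by its brightest probe set.

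Same-numbered arrays with and without 4-OHT deviated together in recombined clone 1 (Pearson r of deviations from group means 0.63, 0.82, 0.45 and 0.31 over probe sets), which is where its pairing comes from; in recombined clone 2 they did not (0.26, −0.69 and −0.59). No 2 arrays were identical. The procedure was tested on simulated data. The alternatives were other arrays fitted, median centring, quantile normalisation, a filter at the median level, a trended robust prior, array weights, the β-actin 3′/5′ ratio as a covariate, the replicate block, a threshold of 0.1 and single arrays left out. The block within recombined clone 1, with or without the 8 arrays alone, its combinations with the covariate, the covariate on the 8 arrays alone, and the fit without the pair numbered 3 were chosen after seeing the data.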

Additional observations from a re-analysis of the deposited data

Results flagged for a closer look

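In recombined clone 1, single arrays stood far from the other 3 of their group in 5 of the 62 groups of 4 arrays checked, and about 1 in 20 groups would be picked out this way by chance alone. With 4-OHT, Zic2 read 6.34 on array 4 against 6.597 to 6.637 on the others, Prss23 read 6.06 on array 3 against 5.80 to 5.84, and Hhex read 6.31 on array 2 against 6.13 to 6.16. Without 4-OHT, array 2 was low in Klf2, at 8.31 against 8.47 to 8.50, and high in Plac8, at 7.68 against 7.50 to 7.52.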

How the results depend on the processing

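The 8 calls in recombined clone 1 became 1 with all 40 labelled arrays, 0 with only the 8 arrays compared (0 also with the β-actin covariate added), 4 after quantile normalisation and 5 with probe sets above the median level. The replicate block in every state gave 0 (1466 probe sets at an unadjusted p under 0.05), with only the 8 arrays it gave 422, and in recombined clone 1 with the covariate 4; without the pair numbered 3 it was 0, and leaving out single arrays gave 0 to 7. Other settings kept the count within 1.5 times. The 4 calls in recombined clone 2 became 0 with all 40 arrays, with only its own arrays and after quantile normalisation, 2 with 39 arrays and with the filter, 871 with array weights (260 higher, 611 lower), 8 with the covariate, 1 with the replicate block, and 1 to 2 with single arrays left out. The interaction, unrecombined clone 1 and the clone difference stayed at 0 calls in every fit, from 0 to 0 with single arrays left out. The second Zic2 probe set turned positive with array weights (0.0163), the covariate (0.0328) and the block with the covariate (0.0384), ran from −0.0480 to 0.0706 without single arrays, and Hhex turned with the 8-array block and covariate (0.0720); the other named probe sets kept their direction. The causes were not tested. Where a fit leaves few residual degrees of freedom, its count rests on few arrays. Intensities under the array median (Inhbb, Prss23, Ccn4) limit those results.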
